A study of Mus musculus with 6 samples.

Results

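The genes described here are 6 members of the neurotrophin system: the ligand genes Bdnf and Ntf3, the Trk receptor genes Ntrk2 and Ntrk3, and the genes of the p75 receptor and of sortilin, Ngfr and Sort1. They were chosen by symbol, and all 6 were found among 19943 genes. RNA was sequenced from the medial prefrontal cortex, which lies on the inner face of the frontal lobe, of C57BL/6 mice. There were 3 libraries of mice isolated from their fellows for 3 weeks after weaning, named isolated 1 to 3, and 3 control libraries, named control 1 to 3. All samples are labelled as 6 weeks of age, while the series' design text gives 7 weeks. The sources used here give neither the housing of the control mice nor the sex of any animal. Whether each library stands for its own animal is not labelled, and p-values therefore cover only the spread between these libraries, which may be technical.

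Neurotrophins are secreted growth factors that are made as longer proforms and cut to mature ligands. Mature BDNF acts through TrkB, the product of Ntrk2, and neurotrophin 3, the product of Ntf3, acts mainly through TrkC, the product of Ntrk3. Proforms bind the p75 receptor together with sortilin, and sortilin also helps to sort newly made BDNF inside the neuron. In the cortex Bdnf is made mostly by excitatory neurons and its transcription follows their activity, whereas the striatum makes little of its own and receives the protein from cortical axons.

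The Bdnf gene lies on chromosome 2 from 109674700 to 109727043 on the plus strand (GRCm38, Entrez gene 12064). It has several first exons, each with its own promoter, and all are joined to 1 common coding exon. The deposited value sums over 12 RefSeq transcripts, so the use of single promoters was not measured. Of the 7 Bdnf promoter windows in the RefSeq table for GRCm38.p6, each of 300 bases with 250 before the start, 1 held the element TCACGTCA. That is the window of promoter IV, the best studied activity-dependent promoter of Bdnf, where this element is known to take part in the response to neuronal activity. It is shown because Bdnf is best known for its activity-dependent transcription, and activity-induced genes are described further on. Capitals mark the element, whose first base lies 38 bases before the start, in chr2:109692186-109692485 on the plus strand.
Bdnf promoter IV: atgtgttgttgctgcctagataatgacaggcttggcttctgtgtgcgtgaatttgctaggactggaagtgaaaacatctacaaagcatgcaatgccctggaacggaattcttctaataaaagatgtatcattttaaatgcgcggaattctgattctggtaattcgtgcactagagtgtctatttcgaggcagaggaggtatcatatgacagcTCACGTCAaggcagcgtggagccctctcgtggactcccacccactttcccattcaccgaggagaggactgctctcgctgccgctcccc
Searched as TCACGTCA on both strands, the element was found in 145 of 32851 promoter windows, or 0.441%. Its shorter core TGACG, which overlaps it on the other strand, was found in 20.8%. The 2 windows of Ntf3, the 1 of Ngfr and the 1 of Ntrk2 held neither form. A match describes the letters of a window and says nothing of binding in these mice.

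Each Trk receptor gene makes a full-length receptor with a kinase domain and a truncated receptor without it, and the deposited values do not separate them. In GENCODE M21 (GRCm38) the coding sequences of Ntrk2-201, the full-length TrkB, and Ntrk2-204, the truncated TrkB, share their first 1393 bases. The truncated form then adds 35 coding bases of its own, against 1070 in the full-length form. The sequences show the last 30 shared coding bases (chr13:58878233-58878262, plus strand) in lower case. Capitals mark what follows in each form, at chr13:58985802-58985861 in the full-length and at chr13:58932023-58932057 in the truncated form.
Ntrk2-201: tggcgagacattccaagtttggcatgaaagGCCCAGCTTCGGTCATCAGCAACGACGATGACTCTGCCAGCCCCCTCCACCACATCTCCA
Ntrk2-204: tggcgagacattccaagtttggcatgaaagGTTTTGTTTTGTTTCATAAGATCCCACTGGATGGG
In Ntrk3 the full-length form Ntrk3-201 and the truncated form Ntrk3-202 share their first 1585 coding bases and then run on for 890 and 251 bases. Here the shared bases lie at chr7:78356027-78356056 on the minus strand, and the first 60 bases of each form's own part at chr7:78260355-78260414 and chr7:78304367-78304426.
Ntrk3-201: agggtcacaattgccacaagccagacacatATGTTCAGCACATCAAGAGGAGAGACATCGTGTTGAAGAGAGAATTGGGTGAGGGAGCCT
Ntrk3-202: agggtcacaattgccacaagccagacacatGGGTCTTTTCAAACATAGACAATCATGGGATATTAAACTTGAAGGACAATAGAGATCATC
The other genes lie on the same build as follows. Ntf3 is at chr6:126101412-126166772 on the minus strand, Ntrk2 at chr13:58806472-59133970 on the plus strand and Ntrk3 at chr7:78179986-78581034 on the minus strand. Ngfr is at chr11:95568818-95587698 on the minus strand and Sort1 at chr3:108283974-108361519 on the plus strand. Reads of either form of a Trk receptor count towards the same gene, so a Trk level below is the sum of signalling and truncated receptors.

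The libraries were of even depth, with 18390902 to 18606573 expected counts in isolated and 18226448 to 18544306 in control libraries. Libraries of 1 group differed widely in markers of striatal projection neurons, the principal cells of the neighbouring striatum. All 15 of these markers were present and none was at 0 in all libraries. Their summed level was 540, 531 and 2468 CPM in isolated 1, 2 and 3, against 1067, 3423 and 339 CPM in control 1, 2 and 3. Isolated 3 and control 2 thus stood apart in the same way, and where the sign of a named gene's difference turns without one of them, the value without it is given. CPM are counts scaled to a common library size, and cortical markers were present in every library, with the 8 upper-layer markers summing to 793 to 1050 CPM in isolated and 986 to 1080 CPM in control libraries. In bulk tissue, fewer cells of a type and less RNA per cell cannot be told apart.

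Compared per length of gene, 4 of the 6 genes had the same order in both groups, and the scarcest pair did not. The levels are the authors' FPKM, which scale the reads of a gene by its transcript length and by the depth of the library. Sortilin was highest with 105 ± 4.98 FPKM in isolated and 108 ± 4.12 FPKM in control libraries (SD, n = 3 each, as for all such values here). TrkB followed with 97.5 ± 1.35 and 88.5 ± 4.84 FPKM in isolated and control libraries. TrkC stood at 24.1 ± 1.22 FPKM in isolated and 22.2 ± 1.77 FPKM in control libraries, and Bdnf at 6.23 ± 2.01 and 6.48 ± 0.355 FPKM. Both remaining genes were scarce: Ntf3 had 0.35 ± 0.165 and 0.45 ± 0.174 FPKM, and Ngfr 0.373 ± 0.0702 and 0.31 ± 0.0985 FPKM, in isolated and control libraries. Ngfr had the higher mean in isolated and Ntf3 in control libraries, and as their libraries overlapped they are not ranked, whereas the ranges of Sort1 (99.9 to 111 FPKM) and Ntrk2 (84.1 to 98.9 FPKM) did not touch. The FPKM of Sort1 was 1.03 to 1.11 times that of Ntrk2 in isolated and 1.18 to 1.29 times in control libraries. This ratio was lower in all isolated libraries, which was not tested. It is not a separate difference, as the Ntrk2 FPKM themselves were apart, at 96.3 to 98.9 in isolated and 84.1 to 93.7 in control libraries. The FPKM of Ntrk2 was 3.89 to 4.22 times that of Ntrk3 in isolated and 3.86 to 4.15 times in control libraries.

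None of the 6 genes passed the test between isolated and control mice. With edgeR's quasi-likelihood test the adjusted p over 15169 genes was 0.999 for each (Benjamini-Hochberg), and 0 of 15169 genes were called in all, or 0%. At an unadjusted p under 0.05 there were 535 genes, or 3.53%, and 0 of the 6. In 17 alternative settings Ntrk2 had an unadjusted p under 0.05 in 6 and Ntrk3 in 1, with an adjusted p of at least 0.763 and 0.8. Groups that did not overlap were seen for 1 of the 6, Ntrk2, against 8.85% of all tested genes. Of all tested genes, 4.12% lay apart with isolated libraries higher, as Ntrk2 did, and 4.73% with isolated libraries lower. DESeq2 called 1 gene of the whole table, Fkbp5, and limma-voom called 0, and neither called any of the 6.

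**Figure D1:**
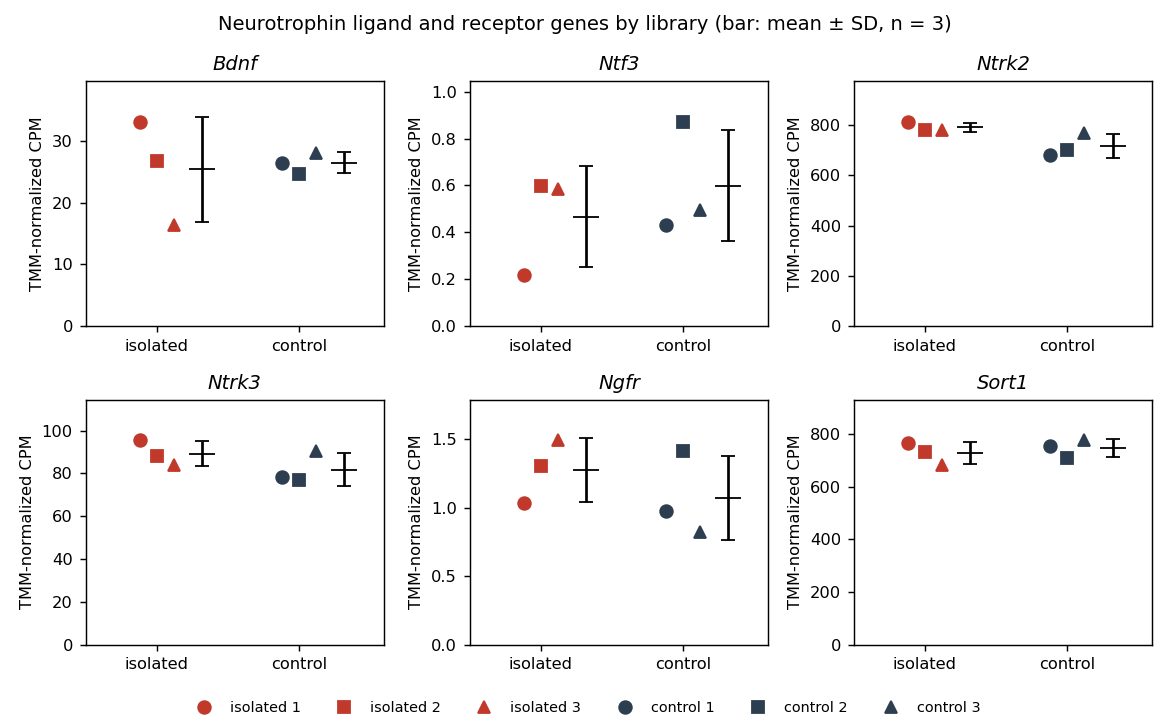
CPM of the 6 genes in each library, isolated left and control right, with the mean and SD of each group (n = 3). Ntrk2 is the single gene whose isolated libraries (780 to 814 CPM) all lie above the control libraries (680 to 770 CPM), and the isolated libraries of Bdnf run from 16.4 to 33.1 CPM, beyond its controls on both sides.

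Bdnf, the main neurotrophin of the cortex, had 33.1, 26.8 and 16.4 CPM in isolated 1, 2 and 3, against 26.5, 24.7 and 28.1 CPM in control 1, 2 and 3. The isolated libraries held both the highest and the lowest value, and the control libraries lay between them. The means were 25.4 ± 8.46 CPM in isolated and 26.4 ± 1.71 CPM in control libraries. The log2 difference was -0.06 (SE 0.22), and its 95% interval ran from -0.58 to 0.46 (edgeR adjusted p = 0.999). Over the 6 libraries the standard deviation of its log2 level was 0.34, higher than in 96.8% of the 500 tested genes nearest to it in level.

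The low value of Bdnf in isolated 3 decided the sign of the difference. Without isolated 3 the log2 difference was 0.18 (edgeR adjusted p = 0.977), and without control 2 and isolated 3 it was 0.13 (edgeR adjusted p = 1). Without isolated 1, the highest library, it was -0.3 (edgeR adjusted p = 1). In none of these settings was Bdnf called.

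The library with the lowest Bdnf also differed in the make-up of its markers. Isolated 3 had the lowest sum of the 8 upper-layer cortical markers, 793 CPM, and of the 8 meningeal fibroblast markers, 309 CPM. Of the upper-layer markers Cux2, Rorb, Calb1 and Rasgrf2 were lowest there, and Cux1, Lamp5, Otof and Wfs1 were not. The sums of the astrocyte, the endothelial, and the pericyte and smooth muscle markers were also lowest in isolated 3, at 4340, 228 and 217 CPM. The sum of the 10 deep-layer cortical markers was instead highest in isolated 3, with 730 CPM. It was 615 and 632 CPM in isolated 1 and 2 and 515 to 632 CPM in control libraries. Single deep-layer markers were split. Foxp2, Tle4, Ctgf and Syt6 were highest in isolated 3, and Bcl11b in control 2. Fezf2, Etv1, Npr3 and Sulf2 were lower in isolated 3 than in isolated 1 and 2. The meningeal sums were 561, 444 and 309 CPM in isolated 1, 2 and 3 and 390, 428 and 422 CPM in control 1, 2 and 3. Isolated 3 also had the highest sum of the 10 mature oligodendrocyte markers, 6909 CPM. They summed to 3759 and 4057 CPM in isolated 1 and 2 and to 2898 to 4830 CPM in control libraries. Control 2, whose striatal sum was higher still, had 24.7 CPM of Bdnf and 986 CPM of upper-layer markers. No marker of these lists was at 0 in all libraries. The part of cell make-up in the Bdnf values was not tested. Exons of Gm45346 on the opposite strand cover 14.4% of the Bdnf exon bases, and as the use of strand in counting is not given, their reads were not separated.

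**Figure D2:**
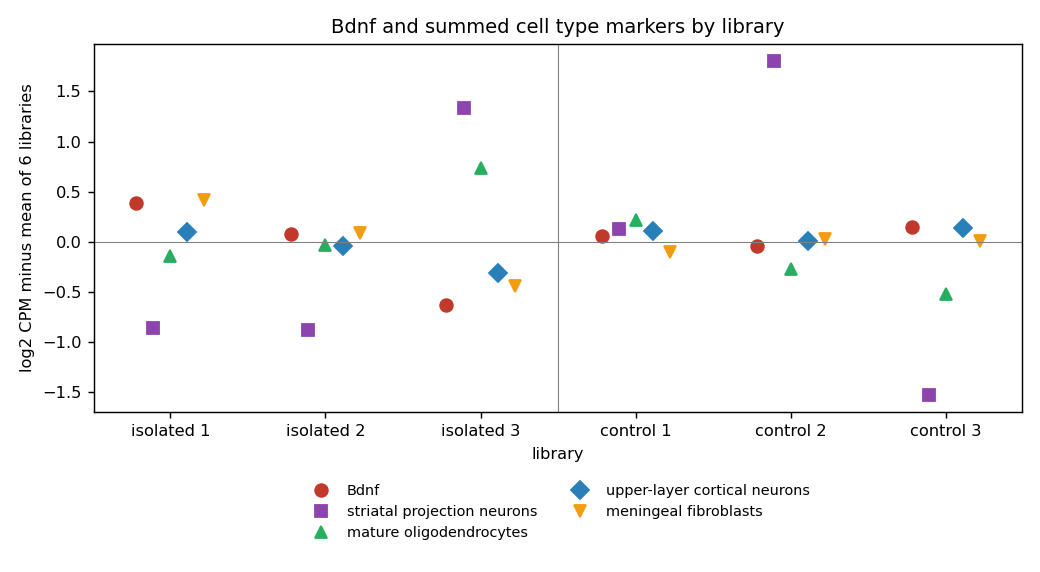
Level of Bdnf and summed levels of 4 cell type marker lists in each library, isolated left and control right, as log2 CPM minus the mean of the 6 libraries. Bdnf and the summed upper-layer and meningeal markers were lowest in isolated 3, where summed mature oligodendrocyte markers were highest. Striatal markers were high in isolated 3 and control 2. Astrocyte, endothelial, and pericyte and smooth muscle sums, which are not drawn, were also lowest in isolated 3.

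Genes whose profile over the 6 libraries lay nearest to that of Bdnf were Foxc1, 1700123M08Rik and Tnfsf13. Their root mean square distance to the centred log2 CPM of Bdnf was 0.06, 0.06 and 0.09, against a median of 0.33 over all tested genes. Foxc1 had 6.02, 5.17 and 2.98 CPM in isolated 1, 2 and 3 and 4.92, 5.06 and 5.17 CPM in control 1, 2 and 3. As it was chosen for its likeness to Bdnf, its being highest in isolated 1 and lowest in isolated 3 is no separate result.

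Ntf3, the ligand of TrkC, was close to the limit of detection, with 4, 11 and 11 expected counts in isolated 1, 2 and 3, against 8, 16 and 9 in control 1, 2 and 3. The highest library was a control and the lowest an isolated one, and the groups overlapped. Mean levels were 0.467 ± 0.217 CPM in isolated and 0.6 ± 0.237 CPM in control libraries. The log2 difference was -0.35 (SE 0.46; 95% interval -1.43 to 0.72; edgeR adjusted p = 0.999), so wide an interval that moderate differences in either direction were not detectable at this depth. Without control 2 it was 0.01 (edgeR adjusted p = 1) and without isolated 1 it was -0.02 (edgeR adjusted p = 1). Nearest in profile were Kl, 1700008O03Rik and Nmbr, at root mean square distances of 0.17 each, where the median gene stood at 0.5.

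Ntrk2, which encodes the BDNF receptor TrkB, had 814, 781 and 780 CPM in isolated 1, 2 and 3. The control libraries had 680, 701 and 770 CPM. All 3 isolated libraries lay above all 3 controls, and isolated 3 and control 3 were the nearest of them. The mean was 791 ± 19.5 CPM in isolated and 717 ± 47.2 CPM in control libraries. The log2 difference was 0.14 (SE 0.06; 95% interval -0.01 to 0.29). Its unadjusted p in edgeR was 0.0574 and its adjusted p 0.999.

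The difference of Ntrk2 was positive in all 17 alternative settings, between 0.11 and 0.2, and its adjusted p lay between 0.763 and 1 in them. As all isolated libraries lay above all controls, leaving libraries out could hardly turn the sign. The other settings reuse the same 6 libraries, so the constant sign is no added support. The lowest unadjusted p of Ntrk2 was 0.0163, without control 3. The value was 0.14 without control 2 and isolated 3 (edgeR adjusted p = 1) and also 0.14 with the striatal level as a covariate (edgeR adjusted p = 0.763). TrkB is made by neurons and, mainly as the truncated form, by astrocytes. The 10 astrocyte markers summed to 4340 to 4516 CPM in isolated and 4665 to 4899 CPM in control libraries. Of the 10, 8 had a lower mean in isolated libraries, and Gjb6 and Fgfr3 a higher one. Slc1a2, the main astrocytic glutamate transporter gene, is the largest part of this sum. It had 2860, 2878 and 2676 CPM in isolated 1, 2 and 3, against 2970, 3013 and 3203 CPM in control 1, 2 and 3. Of the neuronal lists, 9 of the 10 deep-layer cortical markers had a higher mean in isolated libraries and 7 of the 8 upper-layer markers a lower one. The deep-layer sums were 615, 632 and 730 CPM in isolated 1, 2 and 3 and 536, 632 and 515 CPM in control 1, 2 and 3, and overlapped. Of the deep-layer markers Bcl11b, Foxp2, Tle4 and Syt6, but none of the others, were highest in isolated 3 and control 2, as striatal markers were. Bcl11b had 148 CPM in isolated 3 and 198 CPM in control 2. Mature oligodendrocyte markers had a higher mean in 10 of 10 with overlapping sums. The part of these cells in the Ntrk2 values was not tested.

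Ntrk3, which encodes TrkC, had 95.4, 88 and 83.8 CPM in isolated 1, 2 and 3, against 78.1, 76.7 and 90.5 CPM in control 1, 2 and 3. Control 3 lay within the isolated range, and the other controls lay below it. The means were 89.1 ± 5.87 CPM in isolated and 81.8 ± 7.58 CPM in control libraries, a log2 difference of 0.12 (SE 0.08; 95% interval -0.06 to 0.31; edgeR adjusted p = 0.999). Without control 3 it was 0.2 (edgeR adjusted p = 0.88), and without isolated 1 it was 0.07 (edgeR adjusted p = 1). In both Trk genes, as in Bdnf and Sort1, isolated 1 was the highest isolated library and control 3 the highest control.

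The tables also give a length per gene, which RSEM averages over a gene's transcripts by their estimated abundance, so that it moves when the mix of transcripts moves. For Ntrk2 it was 8078, 8040 and 8032 bases in isolated 1, 2 and 3, against 8003, 7977 and 8076 bases in control 1, 2 and 3. For Ntrk3 it was 3706, 3694 and 3664 bases in isolated and 3659, 3646 and 3686 bases in control libraries, in the same order. Both receptors had their shortest mean transcript in control 2, and the groups overlapped. The difference was 31.1 bases for Ntrk2 (exact permutation test, two-sided, p = 0.4) and 24.5 bases for Ntrk3 (exact permutation p = 0.2). The 5 genes with several transcripts were tested, with an adjusted p of 0.5 for each but Ntf3, at 1, and 3 libraries against 3 cannot give an exact p below 0.1. The 12 Bdnf transcripts averaged 4036 to 4059 bases in isolated and 4047 to 4066 bases in control libraries. No share of a receptor form can be read from these lengths, since the lengths used for single transcripts are not given in the sources used here.

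Ngfr, the gene of the p75 receptor, which in the adult forebrain is typical of cholinergic neurons of its base, was scarce in all libraries. It had 1.03, 1.31 and 1.49 CPM in isolated 1, 2 and 3, against 0.973, 1.42 and 0.825 CPM in control 1, 2 and 3, from 14.5 to 27.8 expected counts. The highest isolated and the highest control library were isolated 3 and control 2, and the groups overlapped. The means were 1.28 ± 0.231 CPM in isolated and 1.07 ± 0.308 CPM in control libraries. The log2 difference was 0.25 (SE 0.28; 95% interval -0.4 to 0.9; edgeR adjusted p = 0.999). Without control 2 it was 0.5 (edgeR adjusted p = 1), without control 3 it was 0.1 (edgeR adjusted p = 0.972), and without isolated 3 it was 0.12 (edgeR adjusted p = 0.987). Nearest in profile were Adam12, Rps27l and Gm16023, at root mean square distances of 0.04, 0.08 and 0.08 against a median of 0.31.

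Cholinergic neuron markers were also highest in isolated 3 and control 2, the libraries with the highest striatal markers. Chat, the acetylcholine-synthesizing enzyme, had 0.977, 0.816 and 5.27 CPM in isolated 1, 2 and 3 and 2.22, 7.46 and 0.33 CPM in control 1, 2 and 3. The 6 markers of the list summed to 51, 52.1 and 72 CPM in isolated and 52.4, 81.9 and 44.1 CPM in control libraries, in that order. Ache alone had 42.7 to 50.4 CPM over all libraries. The part of cholinergic or striatal neurons in the Ngfr values was not tested.

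Sort1, which encodes the sorting receptor sortilin, had 766, 731 and 683 CPM in isolated 1, 2 and 3, against 754, 708 and 776 CPM in control 1, 2 and 3. The lowest library of each group was its library with the highest striatal level, isolated 3 and control 2, and the groups overlapped. The means were 727 ± 41.8 CPM in isolated and 746 ± 34.8 CPM in control libraries. The log2 difference was -0.04 (SE 0.07; 95% interval -0.19 to 0.11; edgeR adjusted p = 0.999). Without isolated 3 it was 0.004 (edgeR adjusted p = 0.998). Exons of Gm12523 on the opposite strand cover 4.47% of the Sort1 exon bases, and their reads were not separated either.

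**Figure D3:**
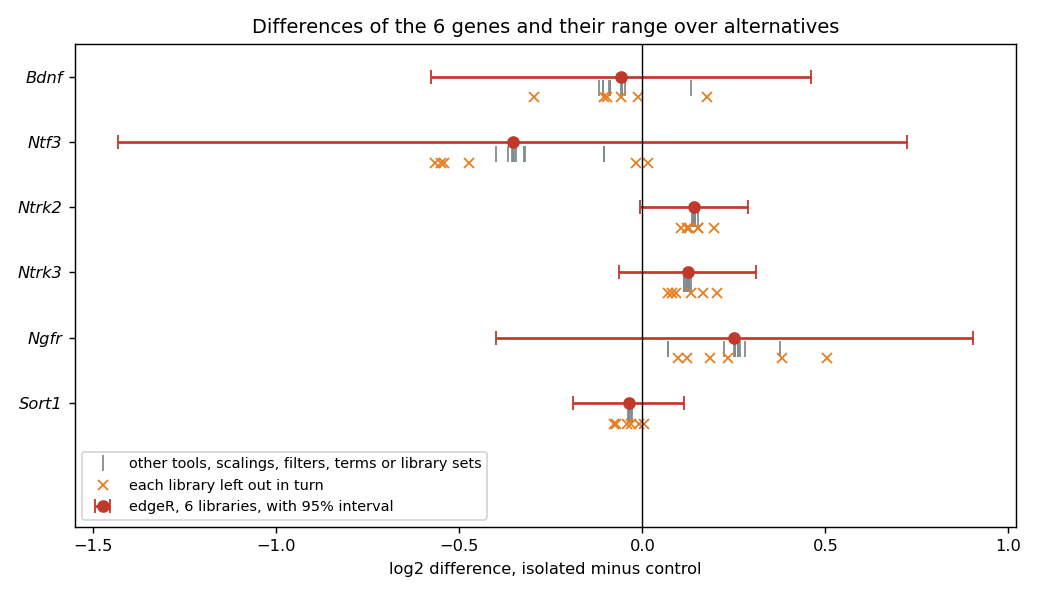
Log2 difference of each gene, isolated minus control, from edgeR on 6 libraries with its 95% interval, and the values of the 17 alternatives (16 for Ntf3). The intervals of all 6 genes include 0. Bdnf, Ntf3 and Sort1 have alternatives on both sides of 0, whereas those of Ntrk2, Ntrk3 and Ngfr are all above it.

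The other ligands and receptors of the family were low apart from the sortilin relatives, and 0 of 7 passed the test in either direction (edgeR). Ntf5, which encodes neurotrophin 4, the other TrkB ligand, had 1.19 ± 0.201 and 0.927 ± 0.152 CPM in isolated and control libraries. Of the sortilin relatives, Sorl1 had 374 ± 36.6 CPM in isolated and 322 ± 68.6 CPM in control libraries. Sorcs2, a co-receptor of p75, had 62.9 ± 11.2 and 68.2 ± 22.8 CPM, Sorcs1 62.6 ± 1.51 and 64.5 ± 2.4 CPM, and Sorcs3 63.7 ± 6.58 and 66 ± 3.05 CPM, in isolated and control libraries. Without control 2 the log2 difference of Sorcs2 was 0.19, against -0.12 with all libraries, and that of Sorl1 was 0.06, against 0.22. Sorcs3 stood at 0.03 without isolated 3.

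The pathway around these genes was read from 6 further lists. With the 7 genes above, 123 of 125 listed genes were tested, of which 0 passed in either direction with edgeR, and 5, or 4.07%, had an unadjusted p under 0.05, near the 3.53% of all tested genes. Those 5 were Rps6ka3, Egr2, Nr4a2, Fos and Btg2, each with a lower mean in isolated libraries. They were not spread evenly: 4 were among the 20 activity and BDNF induced genes and 1 among the 25 kinases and GTPases. Of these 123, groups were apart for 4, or 3.25%, against 8.85% of all: Maged1 was higher and Rps6ka3, Egr2 and Nr4a2 were lower in isolated libraries. The median log2 difference of all tested genes was -0.002, with a higher mean in isolated libraries in 7462 and a lower one in 7707. The counts of higher and lower means in single lists were not tested. DESeq2 and limma-voom also called 0 of the 123.

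Genes that sort, cut and release proneurotrophins differed little: 6 of 15 had a higher and 9 a lower mean in isolated libraries, with a median of -0.01 in log2 and a range from -0.19 to 0.13. With upper-quartile scaling the split was 8 higher and 7 lower, and the median 0.002. Pcsk1, a prohormone-cutting protease, had 28.6 ± 5.76 CPM in isolated and 26 ± 3.26 CPM in control libraries. The matrix proteases Mmp2 and Mmp9 had log2 differences of -0.19 and -0.13. Without isolated 1 the difference of Pcsk1 was -0.02 and that of Mmp9 was 0.07. Furin, which cuts proneurotrophins in the secretory pathway and was chosen here after its values were seen, had 37.6 ± 2.25 CPM in isolated and 39.5 ± 4.06 CPM in control libraries.

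Adaptors that carry the signal from Trk receptors had a median of -0.02, with 7 of 20 higher and 13 lower, and 0 passed. Gab1, a docking protein, had 34.7 ± 7.71 CPM in isolated and 30.9 ± 4.39 CPM in control libraries. Isolated 3 decided its sign, with 43.4 CPM against 28.8 and 31.9 CPM in isolated 1 and 2, and without it the log2 difference was -0.03. Slitrk5, which aids the recycling of TrkB, had 96.8 ± 6.51 and 88.4 ± 8.53 CPM, a log2 difference of 0.13. The neuronal Shc adaptors Shc2 and Shc3 had log2 differences of -0.1 and -0.09.

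Kinases and GTPases of the Ras-MAPK and PI3K-Akt routes had a lower mean in 18 of 25, with a median of -0.05, and 0 passed. Rps6ka3, the kinase RSK2 that acts on CREB, had 75.4, 76 and 79.8 CPM in isolated 1, 2 and 3, against 83.5, 99.9 and 89.5 CPM in control 1, 2 and 3. Its groups were apart, with a log2 difference of -0.24 (SE 0.07, unadjusted p = 0.0116, edgeR adjusted p = 0.999). Mapk7, the kinase ERK5, had 17.6 ± 1.67 CPM in isolated and 20 ± 1.55 CPM in control libraries. Pik3r2, a regulatory subunit of PI3K, had the highest difference of the list, 0.09, which was 0.02 without control 2.

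Partners of the p75 receptor had a higher mean in 14 of 19, with a median of 0.02, and 0 passed. Mag, a myelin protein that binds the Nogo receptor and so acts through p75, had 175 ± 64.5 CPM in isolated and 128 ± 34.8 CPM in control libraries. It is also one of the mature oligodendrocyte markers, which were highest in isolated 3. Without isolated 3 its log2 difference was 0.11, against 0.45 with all libraries. The p75 signalling kinase gene Ripk2 had a log2 difference of 0.2, the Nogo receptor gene Rtn4r -0.08 and the zinc finger gene Zfp369 -0.14. That of Rtn4r was 0.05 without isolated 3 and 0.04 without control 1. Maged1, a p75-binding protein named because its groups were apart, had 491 ± 3.16 CPM in isolated and 479 ± 7.92 CPM in control libraries, a log2 difference of 0.04 with an unadjusted p of 0.479 in edgeR.

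Regulators known to act on Bdnf transcription had a median of -0.02, with 6 of 17 higher and 11 lower, and 0 passed. Rest, a repressor of neuronal genes, had 1.22 ± 0.285 CPM in isolated and 1.81 ± 0.287 CPM in control libraries, a log2 difference of -0.57 (SE 0.25, edgeR adjusted p = 0.999). Npas4, an activity-induced factor that binds Bdnf promoters, had 15.5 ± 2.49 and 18 ± 5.13 CPM. Its log2 difference of -0.21 was 0.04 without control 1. Usf1 and Tet1 had log2 differences of 0.1 and 0.08. Tet1 stood at -0.15 without isolated 3 and at -0.07 without control 3. Creb1, whose product binds the element shown in promoter IV and which was chosen here after its values were seen, had 59.9 ± 2.28 CPM in isolated and 59.4 ± 2.67 CPM in control libraries. Its log2 difference was 0.013, and -0.008 without control 2.

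Activity and BDNF induced genes had a lower mean in 15 of 20, with a median log2 difference of -0.36 and a range from -1.35 to 0.13, and again 0 passed with edgeR. Arc, whose protein acts at the synapse and is induced by BDNF, had 73.7, 76.5 and 144 CPM in isolated 1, 2 and 3, against 510, 168 and 71.1 CPM in control 1, 2 and 3. Egr2, a transcription factor of the immediate early response, had 5.16, 4.08 and 5.11 CPM in isolated and 14.3, 13 and 5.17 CPM in control libraries, in the same order. Bdnf was not spread in this way: control 1, the library with the highest Arc and Egr2, had 26.5 CPM of Bdnf, which lies in the middle of the 6. Without control 1 the median of the list was -0.07 and the difference of Arc was -0.29, against -1.35 with all libraries. Among its genes with an unadjusted p under 0.05, Egr2 stood at -0.92 without control 1, Fos at -0.43 and Btg2 at -0.36. With all libraries these were -1.17, -0.79 and -0.56. Ier2, Fosb and Spry2 turned positive without control 1, at 0.09, 0.18 and 0.06. Nr4a2, a transcription factor that is also a marker of claustrum neurons, had 22.7, 19.4 and 29.7 CPM in isolated 1, 2 and 3, against 34.2, 78 and 33.9 CPM in control 1, 2 and 3. Its log2 difference was -1.02, and it was -0.51 without control 2 and -1.23 without control 1. All 5 claustrum markers, with Nr4a2 itself among them, had a lower mean in isolated libraries. Their sums, which include Nr4a2, were 128 to 164 CPM in isolated and 148 to 317 CPM in control libraries, highest in control 2. The part of claustrum neurons in the Nr4a2 values was not tested. The secreted peptide gene Vgf and the transcription factor gene Egr3 had log2 differences of 0.08 and 0.13. Vgf stood at -0.002 without isolated 1.

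**Figure D4:**
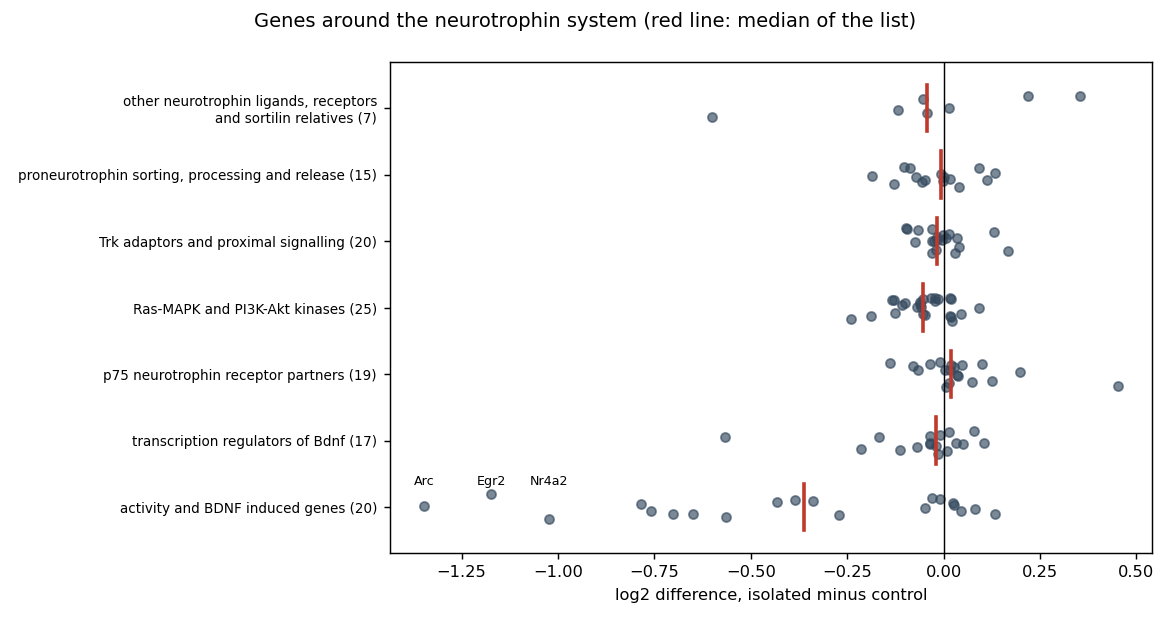
Log2 differences, isolated minus control, of the tested genes of 7 lists around the neurotrophin system, 1 point a gene, with the number tested in brackets. The medians of 6 lists lie between -0.05 and 0.02, and that of the activity and BDNF induced genes is -0.36, with Arc, Egr2 and Nr4a2 lowest.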

How the data were processed

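Total RNA of 6 medial prefrontal cortex samples was sequenced on a BGISEQ-500 with 50-base reads, per the labels' protocols. Each library has 1 table deposited by the authors, in which every gene has a length, an expected count and an FPKM. The expected counts are not normalized in the deposited tables, and the FPKM values are scaled for length and depth, per the file headers. The submitters' processing notes name mm10, RSEM, HISAT and Bowtie2. Settings and use of strand are not given in the sources used here. A further table of 6 FPKM columns was not used here, because no sample label gives its column codes.

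Tables were joined by gene ID, absent genes were set to 0, and the 1 entry per table without a symbol (at most 0.000948% of counts) was left out. Of the IDs, 19899 matched RefSeq (GRCm38.p6). No 2 libraries were alike within counting noise (chi-square 2.9 to 20.4 per gene). The main test, on rounded expected counts, was the quasi-likelihood F-test of edgeR 4.0.16 (R 4.3.3), with TMM scaling and no covariate. The filter filterByExpr (minimum count 10, minimum total 15) left 15169 genes, all 6 neurotrophin genes among them. Standard errors were derived from each fold change and its F, and 95% intervals from these with t quantiles. Log2 CPM profiles used a prior count of 2. Alternatives were DESeq2 1.42.0, limma 3.58.1 (voom, and log2(FPKM + 1) or log2(FPKM + 0.1)), RLE and upper-quartile scaling, no filter, a striatal covariate, a replicate block and left-out libraries. The edgeR step was tested on simulated data.

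The 6 genes and all lists were chosen with earlier results of these data known. From each pathway list the 2 genes with the highest and the 2 with the lowest difference are named, and all of the ligand and receptor list, except a few that are not reported here. For each of the 6 whose log2 CPM spanned at least 0.5, the 3 genes nearest in profile are named.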

Additional observations from a re-analysis of the deposited data

How the results depend on the processing

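In 17 alternative settings none of the 6 genes passed the threshold, and Ntrk2, Ntrk3 and Ngfr were positive throughout. For Ntrk2, whose groups were apart, the constant sign is no added support. Leaving out each library in turn moved the log2 difference, isolated minus control, between -0.296 and 0.177 for Bdnf, -0.57 and 0.01 for Ntf3, 0.11 and 0.2 for Ntrk2, 0.07 and 0.2 for Ntrk3, 0.1 and 0.5 for Ngfr, and -0.077 and 0.004 for Sort1. The sign turned for Bdnf (0.177) and Sort1 (0.004) without isolated 3 and for Ntf3 (0.014) without control 2. It also turned for Bdnf without both control 2 and isolated 3 (0.132), where Ntf3 did not pass the filter and has no value. Scaling moved the median of all genes by at most 0.01.

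DESeq2 called 1 gene, Fkbp5, which is none of the 6 (306 genes at an unadjusted p under 0.05), against 0 with edgeR (535) and 0 with limma-voom (536). The labels do not say whether same-numbered libraries are paired. Such libraries had correlations of 0.03, -0.27 and -0.49 in their deviations from the group means. The highest correlation, 0.44, was between isolated 3 and control 2. As the deviations are from means of only 3 libraries, these values cannot decide whether the numbers pair the samples. With a replicate block the log2 difference was -0.11 for Bdnf and 0.14 for Ntrk2, 0 genes were called, and 331 had an unadjusted p under 0.05. Depth limits Ntf3 and Ngfr most, with at most 16 and 27.8 counts in a library.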
